A study of Mus musculus with 24 samples.

Results

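Deletion of Foxa1 and Foxa2 was compared between the liver tumours of male and female mice, and for a set of autosomal genes the effect of the deletion ran in opposite directions in the 2 sexes. The material was the 16 treated arrays of the 24 in the series, 4 each from wild-type (WT) males, double-knockout (dKO) males, WT females and dKO females. For every autosomal gene the Foxa effect, dKO minus WT, was measured in each sex, and the male effect minus the female effect was tested. The test covered 17832 autosomal genes, and 158 of them are called opposed here: the difference, the male effect and the female effect each passed at an adjusted p below 0.05 (limma, Benjamini-Hochberg over all genes tested), and the sexes had opposite signs.

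Mice of all 4 groups were injected with diethylnitrosamine (DEN, 20 mg/kg) when 14 to 15 days old and later with TCPOBOP (3 mg/kg), given 8 times at intervals of 2 weeks. DEN is a liver carcinogen that damages DNA, and TCPOBOP is an agonist of the nuclear receptor CAR that promotes tumour growth. The genotype labels read WT and dKO, the study title names Foxa1 and Foxa2 as the genes concerned, and all samples are labelled as liver tumour, including 8 arrays from untreated females. The 24 samples include no untreated males. The labels name no allele, Cre driver, strain or age at collection. They do not state that replicates were separate animals either, and all p-values then describe only how these samples vary, which may be technical. In bulk RNA, fewer cells of a type and less RNA per cell cannot be told apart.

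Foxa1 and Foxa2 are forkhead transcription factors that bind closed chromatin in the liver and open it for other factors, among them the oestrogen receptor. Liver tumours induced by DEN are known to arise more readily in male than in female mice. Many cell-cycle genes are held down in resting cells by the DREAM complex, whose MuvB core binds a short promoter element called the cell cycle genes homology region, and are switched on late in the cycle by MuvB with B-Myb and Foxm1, another forkhead factor.

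Values are log2 of the array's processed signal relative to the 75th percentile of that array, so that 0 is that percentile, and effects are differences on that log2 scale with their standard error (SE) and 4 arrays in each group. The deleted genes followed the labels. For Foxa2, the 4 WT males read 3.78, 3.71, 3.55 and 3.72, the 4 dKO males -2.83, -4.86, -5.89 and -3.63, the 4 WT females 4.09, 4.09, 3.88 and 3.98 and the 4 dKO females -5.20, -7.32, -5.48 and -6.24. The groups did not overlap, and the fitted effects were -7.99 in males and -10.07 in females. Readings as low as those of the dKO females can lie at background. Another gene, Cib3, read -7.27 to -5.04 in WT females and was not well above background on any of those arrays. The fitted sizes of Foxa2 may therefore not be measured folds. Foxa1 was not well above background on any dKO array, which bounds its fall at 6.00-fold or more in males and 7.52-fold or more in females, both beyond the test's threshold (adjusted p = 5.24e-09 and 4.26e-09, limma). The sex difference in the Foxa effect was not called for Foxa1 (adjusted p = 0.497) or Foxa2 (adjusted p = 0.112). The third hepatic family member, Foxa3, had effects of 0.91 ± 0.28 in males (adjusted p = 0.032) and 0.59 ± 0.28 in females (adjusted p = 0.14). Among 8 hepatocyte markers 6 were tested, Alb, Ttr, Cps1, Hnf4a, Apoa1 and Fga, and all 6 were well above background on all 16 arrays.

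A property of the arrays limits every p-value below. In each of the 6 groups of the series the array numbered 4 lay between the lowest and the highest of its 3 companions for 71.07% to 84.51% of 19233 probes, against 23.06% to 62.31% for the 18 other arrays. Its standard deviation from the log2 of the mean signal of its 3 companions was 0.14 to 0.20, against 0.25 to 0.73 for the others. The labels list it as a replicate like the others and mention no pooling, and the values do not show what RNA it holds. If it is not an independent sample, p-values from 16 arrays are too small. The results are therefore given for 16 arrays as deposited, and beside them for the 12 arrays numbered 1 to 3. With 12 arrays limma called 0 genes for the difference (smallest adjusted p = 0.202), while 2222 genes (12.5%) had an unadjusted p under 0.05. For the 158 opposed genes, chosen on arrays that include these 12, the adjusted p was 0.202 to 0.291. The words called, higher and lower below refer to the 16-array test unless the 12 arrays are named.

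**Figure D1:**
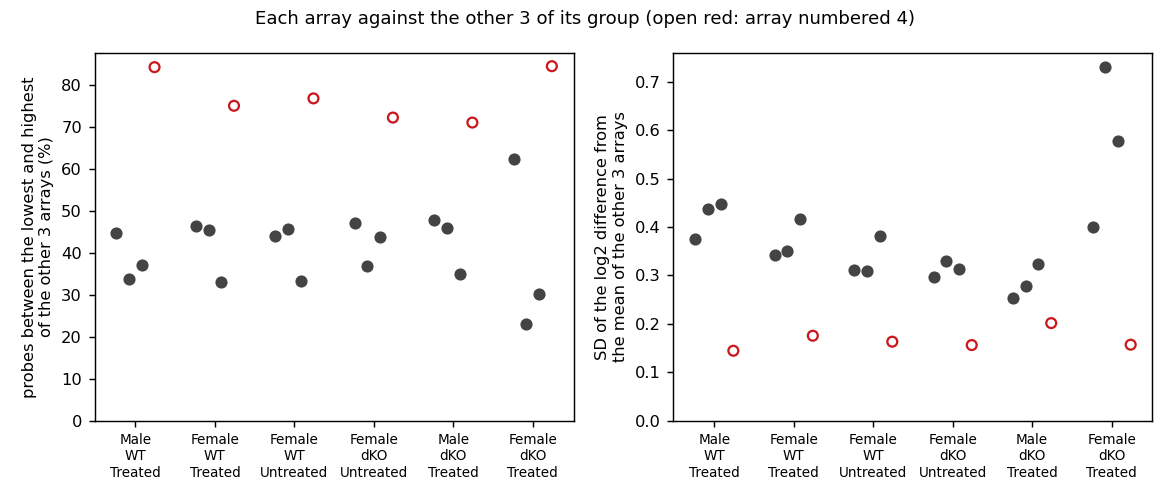
Each point is 1 of the 24 arrays, by group. The vertical axis is the percentage of 19233 probes for which the array lies between the lowest and the highest of the 3 other arrays of its group; the arrays numbered 4 sit at 71.07% to 84.51% and all other arrays at 62.31% or below.

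The Foxa effect differed between males and females for 1358 of 17832 autosomal genes (7.62%). It was higher in males for 698 (3.91%) and lower in males for 660 (3.7%). Within males alone, dKO was higher than WT for 2260 genes (12.7%) and lower for 1726 (9.68%), and within females higher for 2097 (11.8%) and lower for 2293 (12.9%). Of the 1358, the effect was called in males and not in females for 573, in females and not in males for 506, in both with the same sign for 73 and in neither for 48. The remaining 158 were opposed: 113 (0.634%) were higher in dKO females and lower in dKO males, and 45 (0.252%) were higher in dKO males and lower in dKO females. Over all autosomal genes the median difference was 0.10 on the log2 scale. Leaving out 1 array at a time gave 601 (without dKO female 4) to 3157 (without dKO female 3) genes for the difference and 75 to 371 opposed genes. With the slide as a fixed block the counts were 7 and 1, and with that block in a fit of all 24 arrays 1648 and 213. In the first of these 2 fits 0 of the 158 passed for the difference, and in the second 152 did. All 158 kept both signs in each. In the authors' deposited table all 158 have fold changes of opposite sign in the 2 sexes, as a description of the same arrays.

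**Figure D2:**
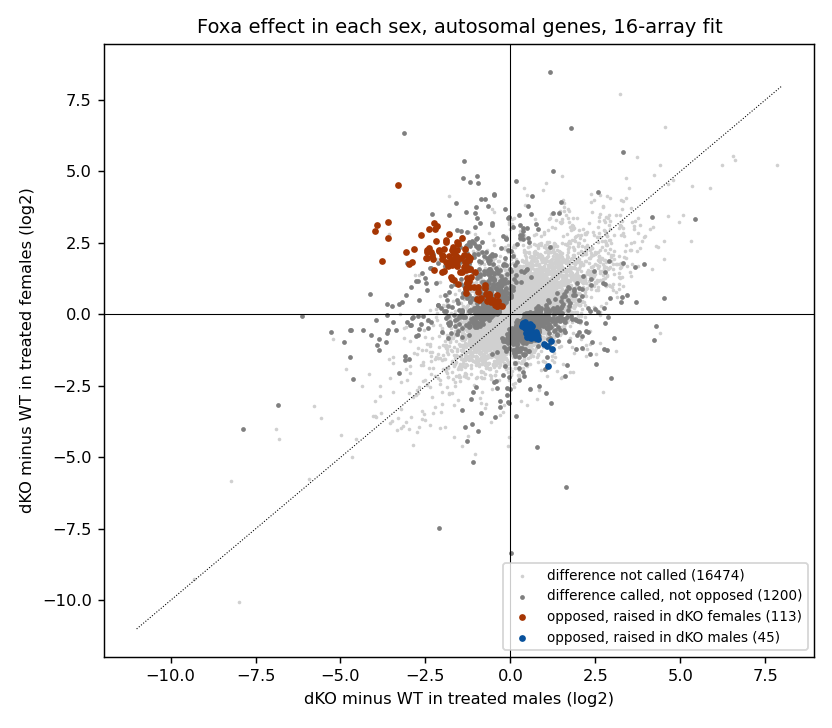
Each point is an autosomal gene, with the Foxa effect (dKO minus WT, log2) in males on the horizontal axis and in females on the vertical axis. The coloured points are the 113 genes higher in dKO females and lower in dKO males and the 45 genes of the reverse pattern, which lie in opposite corners; the second set lies much nearer to 0.

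The effects of the 2 opposed sets differed in size. The median effects of the 113 were -1.58 in males and 1.83 in females, and 85 of them reached 2-fold in both sexes. Those of the 45 were 0.54 in males and -0.56 in females, and 3 reached 2-fold in both. The smaller of the male and the female effect had a median of 1.49 among the 113 and 0.50 among the 45. As these effects chose the members, the sizes are a description. The dKO and WT arrays were free of overlap in both sexes for 55 of the 113 and 30 of the 45, and over all autosomal genes that held for 107 (0.6%) in the first direction and 73 (0.409%) in the second. Just inside the threshold lay Them6 (effects -0.74 in males and 0.92 in females), Cenps (-1.25 and 2.03) and Tmc4 (0.58 and -0.32). Just outside it lay Gtse1 (-2.46 and 2.01), Tbc1d1 (-0.97 and 0.78) and Zfp369 (0.40 and -0.46).

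Promoters of 4 opposed genes are shown because a short element recurs in the set higher in dKO females. Each sequence holds the 250 bases before the transcription start in RefSeq's GRCm38.p6 annotation, 5′ to 3′ along the gene's strand, in lower case, with the matched element in capitals. Cdk1, Prc1 and Cdkn3 belong to the set higher in dKO females, and Bdh2 to the set higher in dKO males.
Cdk1 (chr10:69352913-69353162, minus strand): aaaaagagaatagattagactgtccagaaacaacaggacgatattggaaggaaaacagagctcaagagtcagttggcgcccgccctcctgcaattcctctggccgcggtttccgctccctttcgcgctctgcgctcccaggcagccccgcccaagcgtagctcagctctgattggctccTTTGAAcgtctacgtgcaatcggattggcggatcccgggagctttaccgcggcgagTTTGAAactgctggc
Prc1 (chr7:80294226-80294475, plus strand): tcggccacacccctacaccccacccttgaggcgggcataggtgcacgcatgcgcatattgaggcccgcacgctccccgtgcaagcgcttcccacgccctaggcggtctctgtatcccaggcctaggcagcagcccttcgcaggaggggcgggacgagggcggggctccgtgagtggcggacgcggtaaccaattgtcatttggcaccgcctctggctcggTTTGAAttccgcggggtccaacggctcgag
Cdkn3 (chr14:46760291-46760540, plus strand): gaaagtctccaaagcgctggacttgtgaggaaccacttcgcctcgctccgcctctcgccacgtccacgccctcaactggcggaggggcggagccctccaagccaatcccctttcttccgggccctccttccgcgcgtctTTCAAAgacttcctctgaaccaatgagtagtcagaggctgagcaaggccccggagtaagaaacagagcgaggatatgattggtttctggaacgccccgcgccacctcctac
Bdh2 (chr3:135280971-135281220, plus strand): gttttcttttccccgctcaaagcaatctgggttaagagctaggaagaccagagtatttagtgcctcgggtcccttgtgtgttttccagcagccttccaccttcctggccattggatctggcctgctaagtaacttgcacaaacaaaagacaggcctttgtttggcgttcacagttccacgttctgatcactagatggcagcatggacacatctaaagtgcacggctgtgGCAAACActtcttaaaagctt

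The capitals in Cdk1, Prc1 and Cdkn3 are TTTGAA, the core of the cell cycle genes homology region, or its reverse complement TTCAAA. In Cdk1 it stood 71 to 66 and again 15 to 10 bases before the start, in Prc1 30 to 25 bases before it, and in Cdkn3, on the reverse strand, 111 to 106 bases before it. In Bdh2 the capitals are GCAAACA, the reverse complement of the forkhead word TGTTTGC, 21 to 15 bases before the start. The search ran on both strands from 250 bases before to 50 bases after each start. TTTGAA was in 33 of 89 promoters (37.1%) of the 83 genes higher in dKO females that the promoter table holds. It was in 12.9% of the promoters of all genes tested, in 17.9% of all 32851 promoters, and in 4 of 24 (16.7%) for the 19 listed genes higher in dKO males. The forkhead words, TGTTTAC with its variants, namely TGTTTGC, also TATTTAC, as well as TATTTGC, searched together, were in 8 of 89 (8.99%) and 2 of 24 (8.33%) promoters, against 10.1% for all genes tested. Elements of nuclear receptors were near the background too: AGGTCA was in 15.7% and 12.5% against 13.6%, and AGAACA in 13.5% and 16.7% against 13.7%. A match is a string of letters in a window and not a measured binding site, and TTTGAA was added to the search with these results known.

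Of the 113 genes higher in dKO females and lower in dKO males, 22 were in a list of mitosis genes, 7 in one of DNA replication and 35 in any of 33 gene lists, which hold 4.03% of all autosomal genes tested. Of 34 measured genes of the mitosis list, 32 (94.1%) were called for the difference, all with a lower effect in males. Over all autosomal genes 3.7% had a lower effect in males. Of the 34, 22 were opposed. The list's median effect was -1.60 in males and 2.01 in females, with 24 members lower in dKO males and 29 higher in dKO females. The 2 members not called were Bub1 and Ttk. In the list 5 members were not well above background on any array of at least 1 group, so that fitted sizes there are not measured folds. With 12 arrays the list's median difference was -3.68 against -3.74, with limma calling 0 members for the difference, 4 lower in dKO males and 0 higher in dKO females. Without the arrays numbered 4 and with all 6 groups of the series in the fit, it called 0, 10 and 11.

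The transcription factor Foxm1, which drives late cell-cycle genes (probe at mm9 chr6:128324783-128324842, plus strand), showed the pattern of the list. For Foxm1, the 4 WT males read -1.25, -1.24, -1.57 and -1.38, the 4 dKO males -3.90, -4.08, -3.22 and -3.32, the 4 WT females -4.16, -4.20, -3.33 and -3.61 and the 4 dKO females -2.15, -0.50, -3.33 and -1.55. WT males and 3 of the 4 dKO females were high, dKO males and WT females were low, and dKO female 3 lay at the level of the highest WT female. The fitted effect was -2.27 ± 0.44 in males (adjusted p = 0.0023) and 1.95 ± 0.44 in females (adjusted p = 0.0071), and the difference was -4.22 ± 0.62 (adjusted p = 0.0062, limma). With 12 arrays the male effect still passed (adjusted p = 0.0388), the female effect did not (adjusted p = 0.0969), and the difference was -4.29 (adjusted p = 0.202).

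The kinases that carry cells into and through mitosis followed. For Cdk1, the kinase that starts mitosis, the 4 WT males read -1.39, -1.46, -1.54 and -1.62, the 4 dKO males -3.62, -4.52, -2.32 and -3.09, the 4 WT females -4.44, -4.28, -3.77 and -4.22 and the 4 dKO females -1.90, 0.01, -3.43 and -0.98. All dKO males lay below all WT males and all dKO females above all WT females. For Plk1, a kinase of spindle assembly and chromosome segregation, the 4 WT males read 0.26, 0.41, 0.40 and 0.35, the 4 dKO males -2.13, -2.17, -0.97 and -1.72, the 4 WT females -2.36, -2.41, -1.32 and -2.00 and the 4 dKO females -0.51, 1.87, -1.40 and 0.85. The male groups were apart, whereas dKO female 3 fell inside the range of the WT females. The differences were -4.48 ± 0.82 for Cdk1 (adjusted p = 0.0088) and -4.33 ± 0.76 for Plk1 (adjusted p = 0.0074, limma). Cdc20, the activator of the anaphase-promoting complex, had effects of -2.98 ± 0.50 in males and 1.76 ± 0.50 in females, and its male effect also passed with 12 arrays (adjusted p = 0.0262).

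Named genes of the spindle and of cell division had higher means in WT males and dKO females than in dKO males and WT females. For Prc1, which bundles microtubules at the spindle midzone, the 4 WT males read 0.26, 0.24, 0.13 and 0.18, the 4 dKO males -2.15, -2.02, -1.10 and -1.46, the 4 WT females -2.59, -2.41, -1.69 and -2.50 and the 4 dKO females -0.19, 1.78, -1.40 and 0.77. Neither pair of groups overlapped. For Hmmr, a spindle protein first known as a hyaluronan receptor, the effects were -2.82 ± 0.56 in males and 2.28 ± 0.56 in females, with dKO female 3 inside the range of the WT females. Kif20a, a kinesin of cytokinesis, had effects of -2.45 and 1.99, Cenpf, a kinetochore protein, -2.34 and 2.18, Sapcd2, which helps orient the spindle, -2.03 and 2.08, and Cdkn3, a phosphatase acting on cyclin-dependent kinases, -3.07 and 2.17, in males and females in that order. All 4 passed for both effects and for the difference with 16 arrays, and none of the 4 passed for the difference with 12 (adjusted p = 0.202 each, limma).

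**Figure D3:**
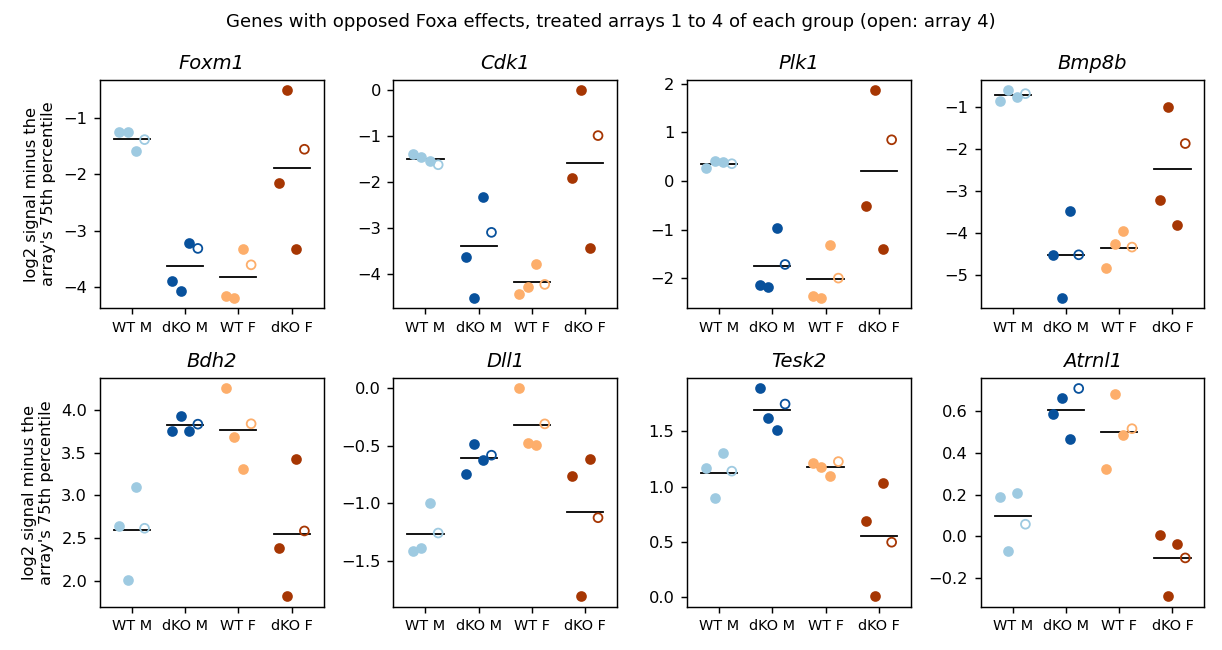
Log2 signal relative to the array's 75th percentile on each of the 16 treated arrays, for 4 genes higher in dKO females and lower in dKO males (Foxm1, Cdk1, Plk1, Bmp8b) and 4 of the reverse pattern (Bdh2, Dll1, Tesk2, Atrnl1). Bars are group means, and open points are the arrays numbered 4. In Foxm1, Cdk1 and Plk1 WT males and most dKO females are high, with dKO female 3 near the WT females. In Bmp8b all dKO females lie between the WT females and the WT males.

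DNA replication genes moved less. Of 28 measured, 17 (60.7%) had a lower effect in males, 1 (3.57%), Tk1, had a higher one, and 7 were opposed. Over all autosomal genes the shares were 3.7% lower and 3.91% higher. The list's median effect was -0.45 in males and 0.96 in females. For Mcm2, a subunit of the replicative helicase, the 4 WT males read -0.85, -0.72, -0.69 and -0.78, the 4 dKO males -1.85, -2.05, -1.49 and -1.75, the 4 WT females -2.07, -1.91, -1.40 and -1.72 and the 4 dKO females -0.58, 0.68, -1.26 and -0.06. Groups were apart in both sexes, with effects of -1.03 ± 0.30 and 1.47 ± 0.30. Gins2, a subunit of the GINS complex that activates that helicase, had effects of -1.34 ± 0.38 and 1.84 ± 0.38. Myc, a transcription factor of growth, was opposed as well: the 4 WT males read 0.04, 0.62, -0.11 and 0.34, the 4 dKO males -0.79, -0.23, -0.53 and -0.54, the 4 WT females -0.13, -0.82, -0.33 and -0.55 and the 4 dKO females 0.51, 1.11, 0.19 and 0.53. Its effects were -0.74 ± 0.21 in males (adjusted p = 0.0232) and 1.04 ± 0.21 in females (adjusted p = 0.004), and all 3 of its probes had a difference of the same sign.

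Opposed genes outside the cell cycle included a secreted ligand, a surface protein and an adaptor. For Bmp8b, a secreted ligand of the bone morphogenetic protein family, the 4 WT males read -0.85, -0.60, -0.75 and -0.68, the 4 dKO males -4.51, -5.54, -3.46 and -4.51, the 4 WT females -4.84, -4.26, -3.95 and -4.33 and the 4 dKO females -3.21, -0.99, -3.79 and -1.87. WT males stood above all other arrays, with dKO female 2 closest to them, and the dKO females lay above the WT females with no overlap. Its male effect of -3.79 ± 0.52 passed with 16 arrays (adjusted p = 0.000184) and with 12 (adjusted p = 0.0118), and its female effect was 1.88 ± 0.52 (adjusted p = 0.0194, and 0.187 with 12 arrays). For Ly6d, a lipid-anchored surface protein, the 4 WT males read 3.45, 5.87, 5.03 and 5.07, the 4 dKO males 0.15, -0.08, 2.47 and 1.21, the 4 WT females 0.65, 0.56, 2.93 and 1.72 and the 4 dKO females 4.10, 6.52, 2.25 and 5.44. All dKO males were below all WT males, while dKO female 3 lay below the highest WT female. For Sdcbp2, a PDZ adaptor protein, the effects were -3.60 ± 0.98 in males and 3.22 ± 0.98 in females, and the dKO females divided into 2 high arrays, numbers 2 and 4, and 2 arrays near the WT females.

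Another 2 opposed genes belong to liver metabolism and its hormones. Lpl, lipoprotein lipase, had effects of -1.30 ± 0.24 in males (adjusted p = 0.0014) and 0.91 ± 0.24 in females (adjusted p = 0.0145). Igfbp1, a secreted binding protein of insulin-like growth factors, had effects of -1.27 ± 0.32 in males (adjusted p = 0.0111) and 1.08 ± 0.32 in females (adjusted p = 0.0249). In both, the male groups were apart and the female groups overlapped. In 1 of the 2 pairs of females that shared a slide, dKO minus WT was -0.30 for Igfbp1.

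Levels in the 4 groups placed the 113 genes as follows. The highest group mean was that of WT males for 69 and of dKO females for 44, and the lowest was that of WT females for 70 and of dKO males for 43. WT males exceeded WT females, as called by limma, for 71, and dKO males were below dKO females for 84. Per dKO female array, the median over the 113 of its value minus the WT female mean was 1.30, 3.11, 0.50 and 2.22, whereas for the dKO males minus the WT male mean it was -1.65, -1.96, -1.09 and -1.39. Array 2 was the highest dKO female for 103 of the 113, and array 3 was inside the range of the WT females or below it for 52. The mean of the mitosis list, each gene centred on its mean over the 16 arrays, read 0.43, 2.21, -0.53 and 1.34 in the dKO females against -1.33, -1.26, -0.62 and -1.05 in the WT females. In the WT males it read 1.02, 0.93, 0.92 and 0.93, and in the dKO males -1.06, -1.20, -0.10 and -0.62. Within the dKO females, the array measures moved with the mitosis mean. The slope of the spike-in fit, a quality measure that the scanner software writes for each array, was 0.953, 0.923, 0.985 and 0.946 in the dKO females, against 0.955 to 1.02 on the other 12 treated arrays. The 75th percentile of the signal was 715, 959.9, 686 and 852 in the dKO females, against 433 to 711 on the others. The dKO females with the lower slope and the higher percentile were those with the higher mitosis mean, and the part of these measures was not tested.

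**Figure D4:**
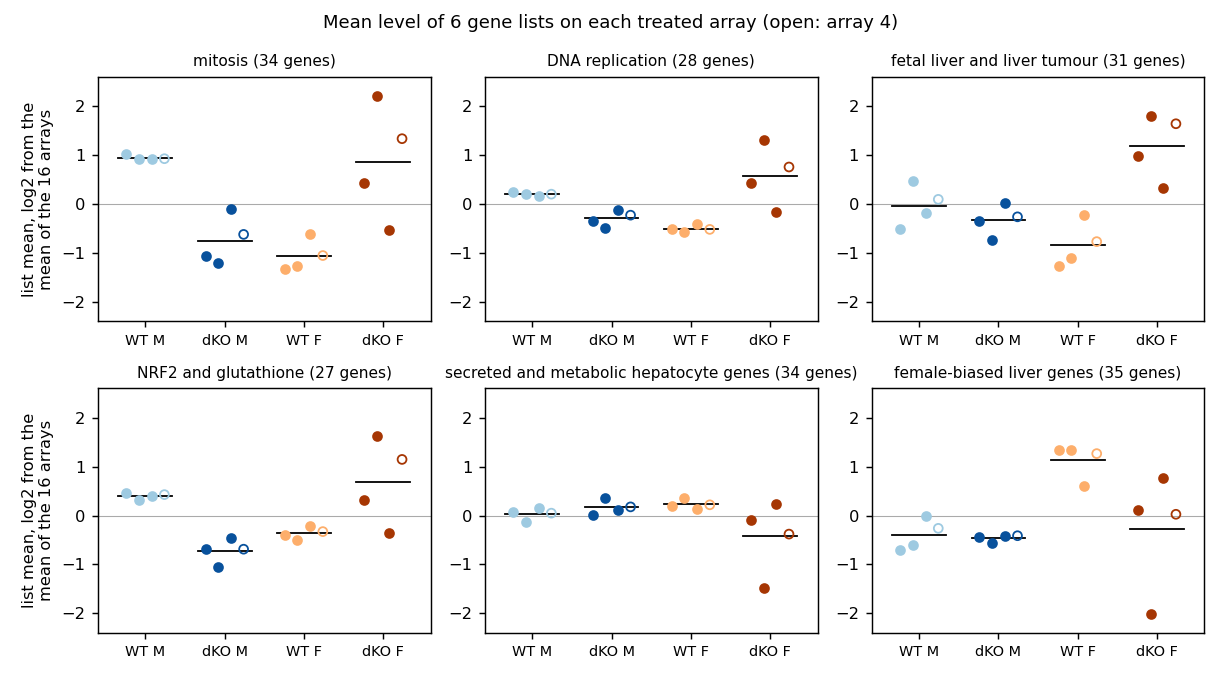
Mean of 6 gene lists on each of the 16 treated arrays, each gene centred on its mean over those arrays (log2); open points are the arrays numbered 4. For mitosis the 4 WT males lie at 0.92 to 1.02, the dKO males at -1.20 to -0.10, the WT females at -1.33 to -0.62 and the dKO females between -0.53 and 2.21.

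The 45 genes higher in dKO males and lower in dKO females had smaller effects. A RefSeq symbol was found for 22 of the 45 and for 107 of the 113, against 14635 of the 17832 autosomal genes tested. None of the 45 was in any of the 33 gene lists, and as the lists hold 4.91% of the autosomal genes with such a symbol, that count is near the background. The highest group mean was that of dKO males for 39 and the lowest that of dKO females for 40, and dKO males exceeded dKO females for 40. For Bdh2, a cytosolic dehydrogenase related to the enzymes of ketone body metabolism, the 4 WT males read 2.64, 2.01, 3.09 and 2.61, the 4 dKO males 3.76, 3.93, 3.75 and 3.83, the 4 WT females 4.25, 3.68, 3.30 and 3.84 and the 4 dKO females 2.38, 1.82, 3.43 and 2.58. The male groups were apart, and dKO female 3 lay inside the range of the WT females. The fitted effect was 1.23 ± 0.30 in males (adjusted p = 0.0096) and -1.22 ± 0.30 in females (adjusted p = 0.0111), with a difference of 2.44 ± 0.42 (adjusted p = 0.0073, limma). With 12 arrays the difference was 2.43 (adjusted p = 0.202).

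For Dll1, a ligand of the Notch receptors, the 4 WT males read -1.41, -1.38, -1.00 and -1.26, the 4 dKO males -0.75, -0.49, -0.63 and -0.58, the 4 WT females -0.01, -0.48, -0.49 and -0.31 and the 4 dKO females -0.77, -1.80, -0.61 and -1.12. The groups were apart in both sexes. Dll1 was lowest in the WT males and in dKO females 2 and 4, and its effects were 0.65 ± 0.21 and -0.75 ± 0.21.

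The other named genes of this direction spread over unrelated functions. For Atrnl1, an attractin-like membrane protein, the 4 WT males read 0.19, -0.07, 0.21 and 0.06, the 4 dKO males 0.59, 0.66, 0.47 and 0.71, the 4 WT females 0.32, 0.68, 0.49 and 0.52 and the 4 dKO females 0.01, -0.29, -0.04 and -0.10. Both pairs of groups were apart with a narrow spread, and the effects were 0.51 ± 0.10 (adjusted p = 0.0031) and -0.61 ± 0.10 (adjusted p = 0.0013). Tesk2, a kinase of actin organisation, had effects of 0.56 and -0.62, Atxn7, a subunit of the SAGA histone acetyltransferase complex, 0.49 and -0.56, and Mast3, a microtubule-associated kinase, 0.54 and -0.59. Edrf1, a regulator of erythroid genes, had 0.58 and -0.53, and Thoc2l, a copy of the mRNA export gene Thoc2 whose signal may hold both, 0.55 and -0.64. A further 3 uncharacterised transcripts completed the genes named here, D630033O11Rik (0.82 and -0.87), 4930539N22Rik (0.67 and -0.76) and 6430562O15Rik (0.61 and -0.82). Per dKO female array the median over the 45 of its value minus the WT female mean was -0.51, -0.79, -0.30 and -0.63, and per dKO male array 0.51, 0.55, 0.60 and 0.55.

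The simple effects of the opposed genes depended on the arrays. With 12 arrays limma called the male effect for 13 of the 113 and the female effect for 2, counted in the direction of the set. For the 45 these counts were 5 and 0. Of all 17832 autosomal genes it called 1264 in males and 713 in females, counted in either direction. All WT males lay in position 1 of their slide and all dKO females in position 4. With array position as a covariate the difference passed for all 158 while 0 genes passed as opposed (limma, 4525 genes at an unadjusted p under 0.05 for the difference). The dKO and WT arrays were equally far apart in mean position in both sexes, so this covariate could not change the size of the difference. That the 158 passed there therefore says nothing about position. In the simple effects position and group cannot be told apart. Within the 5 pairs of dKO and WT arrays that shared a slide, 3 male and 2 female, 112 of the 113 and 44 of the 45 had the same signs on all 5, against 5.94% and 10.6% of all autosomal genes. The members were chosen for these signs, the 2 female pairs hold dKO females 2 and 4, and dKO female 3 is in no pair.

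Genes outside the opposed sets differed between the sexes too. Lower levels in dKO females with a smaller male effect or none called were found for a transporter and a urinary protein. For Slco1a1, which takes organic anions into hepatocytes, the 4 WT males read 2.78, 1.56, 2.12 and 2.05, the 4 dKO males 1.10, 0.61, -1.99 and 0.39, the 4 WT females 0.85, 2.73, 1.34 and 2.09 and the 4 dKO females -4.65, -6.02, -6.50 and -5.66. Both effects were called with the same sign, -2.10 ± 0.61 in males and -7.46 ± 0.61 in females, and differed by 5.36 ± 0.87 (adjusted p = 0.0062). Mup3, a major urinary protein of a family of near-identical genes and so of uncertain identity, had effects of 0.17 ± 0.37 in males and -3.55 ± 0.37 in females (adjusted p = 4.35e-05, and 0.0075 with 12 arrays). Srd5a1, the steroid reductase that makes dihydrotestosterone, was lower in both sexes, with effects of -1.00 in males and -2.54 in females, and both effects passed with 12 arrays.

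Genes of the sulfotransferase family 2A read in different ways, with probes that near-identical members may share. Sult2a7 had effects of 1.65 ± 1.11 in males (adjusted p = 0.324) and -6.02 ± 1.11 in females (adjusted p = 0.0021). Sult2a2 had 4.24 ± 0.99 in males (adjusted p = 0.0074) and -0.90 ± 0.99 in females (adjusted p = 0.543). Serpina4-ps1, annotated as a pseudogene, was higher in dKO males by 4.29 ± 0.61 (adjusted p = 0.000255, and 0.0133 with 12 arrays) and had -0.41 ± 0.61 in females (adjusted p = 0.66). Clec2h, a C-type lectin, had 1.21 and -3.11, and Myh2, a myosin heavy chain of skeletal muscle, 2.51 and -1.75, with male and female groups of Myh2 both overlapping. A1bg, a plasma glycoprotein known to be higher in females, was not well above background on any WT male array, and its female effect was -4.63 ± 1.02 (adjusted p = 0.006).

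Among the named genes outside the opposed sets, the lowest differences were those of Slc7a11, Mgst2 and Cbr3. For Mgst2, a microsomal glutathione transferase, the 4 WT males read -0.66, 0.12, 1.02 and 0.36, the 4 dKO males -0.48, -2.22, -0.98 and -0.96, the 4 WT females -1.89, -2.43, -0.86 and -1.64 and the 4 dKO females 2.76, 5.33, 2.18 and 4.31. All dKO females were above every other array. The female effect was 5.35 ± 0.62 (adjusted p = 9.17e-05, and 0.0114 with 12 arrays) and the male effect -1.37 ± 0.62 (adjusted p = 0.132). Cbr3, a carbonyl reductase, had effects of -1.39 ± 0.79 in males (adjusted p = 0.236) and 4.77 ± 0.79 in females (adjusted p = 0.0011). Slc7a11, which imports cystine for glutathione synthesis, was not well above background on any WT female or dKO male array, and was at least 24.7-fold higher in dKO than in WT females (adjusted p = 0.0033), where dKO females 2 and 4 read 3.20 and 1.93 and dKO females 1 and 3 -4.11 and -3.30. Bounds set the bright group's mean against the lowest signal that was well above background on each dim array, or the probe's own signal if higher.

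These belong to a list of 27 measured genes that the factor NRF2 is known to activate. Of the 27, 12 (44.4%) had a lower effect in males, against 3.7% of all autosomal genes, and none a higher one. The median effect of the list was -0.86 in males and 0.44 in females. Of 34 measured CAR and PXR targets, 4 (11.8%) had a lower effect in males and none a higher one. The list's median difference was 0.41, from median effects of -0.60 in males and -0.89 in females. Those 4 were Abcc4, described below, and the glutathione transferases Gsta1, Gsta2 and Gstm2, which were lower in dKO males, with effects of -1.72, -3.27 and -3.06, and had 0.28, 0.35 and -0.26 in females without passing. Fgf21, a hormone secreted by the liver under metabolic stress, had effects of -1.20 ± 0.84 in males (adjusted p = 0.339) and 4.64 ± 0.84 in females (adjusted p = 0.0018), and dKO females 2 and 4 read 4.83 and 3.71 against 0.75 and 0.38 for the other 2. A further 3 dim genes were higher in dKO females than in WT females that lacked signal above background, Prnd at least 9.34-fold, Tekt5 at least 10.1-fold and Mab21l3 at least 4.73-fold. These bounds use the mean of the dKO females, of which numbers 2 and 4 were the highest in all 3 genes. For Tekt5 those 2 read 1.37 and 0.14, against -4.60 and -4.34 for dKO females 1 and 3.

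Among genes called in males and not in females, several were lower in dKO males. For Npc1l1, the carrier of cholesterol uptake, no dKO male array was well above background, and WT males were at least 18.2-fold higher (adjusted p = 2.58e-05, and 0.0038 with 12 arrays). Its female effect was -0.07 ± 0.65 (adjusted p = 0.951). For Afp, the fetal serum protein and marker of liver tumours, the 4 WT males read 3.14, 1.50, 1.94 and 2.31, the 4 dKO males -1.94, -1.95, -1.86 and -1.85, the 4 WT females -0.41, -0.60, -0.21 and -0.45 and the 4 dKO females -1.11, 2.21, -1.00 and 1.14. All dKO males lay below all other arrays, and the dKO females divided into arrays 2 and 4, in the range of the WT males or just below, and arrays 1 and 3, below the WT females. The effect of Afp was -4.12 ± 0.59 in males (adjusted p = 0.000256, and 0.0131 with 12 arrays) and 0.72 ± 0.59 in females (adjusted p = 0.395). Abcc4, an export pump for bile acids and drugs, had -3.64 ± 0.48 in males (adjusted p = 0.000146, and 0.0103 with 12 arrays) and -0.02 ± 0.48 in females (adjusted p = 0.981).

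Other lists held genes called in 1 direction or in both. Of 31 measured genes of fetal liver and liver tumour, 15 (48.4%) had a lower effect in males and none a higher one. Over all autosomal genes the shares were 3.7% lower and 3.91% higher. The list's median effects were 0.04 in males and 2.07 in females. Of 21 periportal genes, 6 (28.6%) had a higher effect in males, among them Cdh1, Cyp2f2, Uroc1 and Igf1, and none a lower one. Igf1, the growth factor secreted by hepatocytes under growth hormone, had 1.23 ± 0.22 in males (adjusted p = 0.0012) and -0.22 ± 0.22 in females (adjusted p = 0.495). Of 35 genes known to be higher in female liver, 7 (20%) had a higher and 2 (5.71%) a lower effect in males. Of 26 known to be higher in male liver, 3 (11.5%) had a higher and 3 (11.5%) a lower one. Over the 34 secreted and metabolic genes of hepatocytes the median difference was 0.62, and limma called 0 for the difference. An unadjusted p under 0.05 was reached by 12 of the 34, against 4675 (26.2%) of the 17832 autosomal genes. The 2 probes of Esr1, the oestrogen receptor, had differences of opposite sign.

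**Figure D5:**
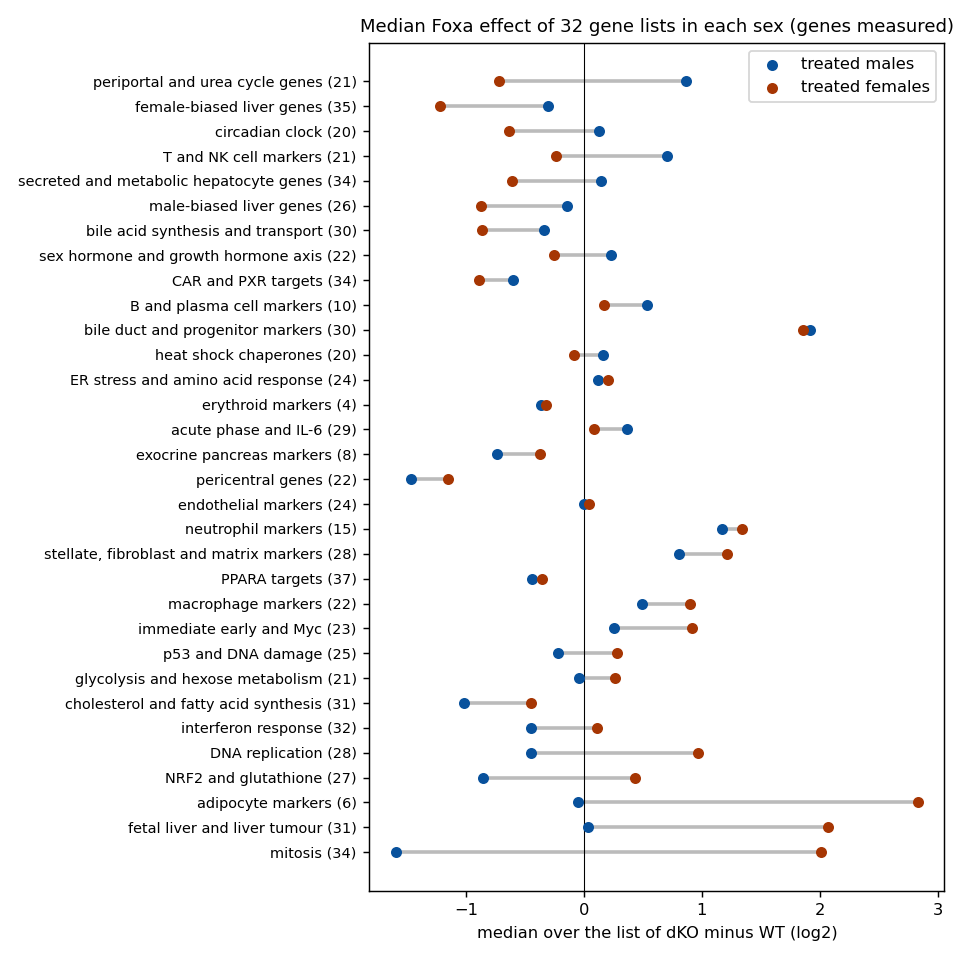
Median Foxa effect (dKO minus WT, log2) of each gene list apart from the hepatic forkhead factors, with 1 row per list. The horizontal axis is the median, and 2 joined points give males and females. Mitosis lies at -1.60 in males and 2.01 in females, and DNA replication at -0.45 and 0.96. The 2 points of the bile duct list lie close together at 1.91 and 1.86.

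Markers of other cell types were measured beside these results. The bile duct list had a median effect of 1.91 in males and 1.86 in females. Of the list's 30 genes, 2 (6.67%) were called for a higher and 3 (10%) for a lower effect in males. Its mean per array was 0.47 to 1.01 in dKO males and 0.76 to 1.22 in dKO females, against -1.36 to -0.51 in WT males and -1.12 to -0.32 in WT females. The stellate and matrix list had medians of 0.81 and 1.21 and 1 of 28 called. Among the defining markers, limma called 0 of 6 of bile duct for the difference (2 at an unadjusted p under 0.05), 0 of 7 of stellate cells (3), 0 of 6 of macrophages (1), 0 of 6 of T and NK cells (0) and 0 of 5 of endothelium (0). Over all autosomal genes 26.2% had an unadjusted p under 0.05 for the difference (limma). In the longer lists, 3 of 24 endothelial genes (12.5%, against 3.91% of all autosomal genes) and 2 of 21 T and NK cell genes (9.52%) had a higher effect in males. The endothelial genes were Tek, with effects of 0.02 in males and -0.93 in females, Bmp2 with 0.14 and -1.47, and Clec4g with 0.28 and -1.28. The T and NK cell genes were Zap70, with 0.26 and -1.89, and Klrb1c, with 0.96 and -0.37. A lower effect in males was called for 2 of 6 adipocyte genes (33.3%), 2 of 8 exocrine pancreas genes (25%) and 1 of 15 neutrophil genes (6.67%). Over all autosomal genes that share was 3.7%. In at least 1 group, 1 of the 6, 2 of the 8 and 3 of the 15 were not well above background on any array. The part of these cells in the opposed effects was not tested. A mean of 67.2% of probes were well above background in dKO females, against 60.0% in WT males, 62.1% in dKO males and 60.6% in WT females. The part of that gap was not tested either.

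The 8 untreated female arrays, which the difference did not use, gave the Foxa effect without treatment, in tissue that the labels also call liver tumour. There dKO was higher than WT for 1594 of 17832 genes (8.94%) and lower for 1177 (6.6%). Of the 113 genes higher in treated dKO females, 8 were higher and 1 was lower there, a share near that background, with a median effect of 0.07. Of the 45, 5 were lower and none higher, with a median of -0.15. For Foxm1 the 4 untreated WT females read -5.04, -4.43, -4.06 and -4.26 and the 4 untreated dKO females -4.32, -5.23, -4.03 and -4.45, so that the WT values lay inside the range of the dKO values. Of the 34 mitosis genes limma called 0 in untreated females, with 1 at an unadjusted p under 0.05, and the list's median effect was -0.02. Among the named opposed genes, 4 were called in untreated females with the sign of the treated female effect. Atrnl1 had -0.84 ± 0.11 (adjusted p = 0.0031), Edrf1 -0.45 ± 0.11 (adjusted p = 0.0346), Sdcbp2 1.15 ± 0.21 (adjusted p = 0.0113) and Lpl 2.81 ± 0.17 (adjusted p = 0.000159). For Lpl that is above its treated female effect of 0.91. Without the arrays numbered 4, limma called 331 genes in untreated females, 1 of the 113 among them. The change of the female effect with treatment was not tested.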

How the data were processed

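RNA of 24 mouse liver samples was hybridised to single-colour Agilent arrays, 1 array a sample, and the 16 treated arrays are analysed here. The deposited scanner files hold intensity values per probe from Agilent Feature Extraction, version 10.5.1.1 per the file headers and 9.53 per the submitters' processing notes, with probe positions on mm9. The authors' processed intensity is background-subtracted. The authors' deposited table of signed fold changes, a score made by steps that no header or label records, was read for signs only. Here log2 of the processed intensity minus the 75th percentile of each array was taken. Control spots and outlier spots were left out, and a probe was kept if 4 or more of the 16 arrays had it well above background (27377 probes). The probe with the highest mean, among those matched by accession where a gene had any, stood for a gene, and 18570 genes were tested, 14635 of the 17832 autosomal ones with a RefSeq symbol. limma 3.58.1 in R 4.3.3 fitted the 4 group means (lmFit, eBayes) with Benjamini-Hochberg adjustment over all genes tested. The steps were tested on simulated data. The number of arrays limits the precision of these values.

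Named genes are, among genes with a RefSeq symbol, the 12 opposed genes of each direction with the largest smaller side, well above background on 3 or more arrays of every group, the 8 highest and 8 lowest other called differences, well above background on all 4 arrays of the brightest group, up to 4 genes of each list by adjusted p, and Foxa1, Foxa2, Foxa3, Esr1, Myc and Afp. Some genes that this rule names are not reported here. Bub1, Ttk and Tk1 and the genes next to the threshold stand outside that rule. The members and lists were chosen with earlier results of these data known. Of 96 named genes 32 have several probes, and in 31 of these all had the same sign of the difference, Esr1 being the exception. Same-numbered samples did not deviate together (mean correlation of their deviations from the group means -0.01 over 24 pairs), so the numbers were not used as pairs. Alternatives to the background correction, scaling, filter, blocks, weights and arrays were fitted. The fits without arrays numbered 4, those with slide or position over all 24 arrays, that without dKO females 2 and 4, and the untreated females were added after seeing the data.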

Additional observations from a re-analysis of the deposited data

Results flagged for a closer look

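The Foxa effect differed between treated males and females for 1358 autosomal genes and was opposed for 158, by the test of the difference itself in limma with 16 arrays. With the 12 arrays numbered 1 to 3 no single gene passed that test (smallest adjusted p = 0.202). Among the opposed genes higher in dKO females the differences, male minus female effect on the log2 scale, were -6.83 for Sdcbp2, -7.03 for Ly6d, -5.11 for Hmmr, -4.52 for Cenpf, -5.24 for Cdkn3, -4.33 for Plk1, -4.11 for Sapcd2, -4.43 for Kif20a, -4.22 for Foxm1, -4.42 for Prc1, -4.48 for Cdk1 and -5.67 for Bmp8b. Among those higher in dKO males they were 2.44 for Bdh2, 1.68 for D630033O11Rik, 1.43 for 4930539N22Rik, 1.40 for Dll1, 1.43 for 6430562O15Rik, 1.19 for Tesk2, 1.19 for Thoc2l, 1.13 for Mast3, 1.11 for Edrf1, 1.12 for Atrnl1 and 1.05 for Atxn7. Among genes that were not opposed they were 7.67 for Sult2a7, 5.36 for Slco1a1, 5.13 for Sult2a2, 4.70 for Serpina4-ps1, 4.32 for Clec2h, 4.26 for Myh2, -5.84 for Fgf21, -6.16 for Cbr3 and -6.72 for Mgst2.

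Single arrays far from the other 3 of their group, by Dixon's test, were found in 3 of 150 groups of named genes checked. Chance gives about 1 in 20 for 4 independent values. The arrays numbered 4 may not be independent and the groups checked share arrays, so that rate may not hold here. Hmmr read -1.03 in WT male 2 against -0.67 to -0.62 in the other WT males. Sult2a2 read 6.15 in WT female 3 against 7.75 to 7.99. Serpina4-ps1 read 0.77 in dKO male 3 against 2.40 to 2.65.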

How the results depend on the processing

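The counts of 1358 differing and 158 opposed genes moved with many settings. Of the 158, chosen for their signs on these arrays, 132 kept both signs with normexp and 146 with array position as a covariate, and a filter on all 16 arrays left 101. The counts of differing and opposed genes were 2305 and 242 with all 24 arrays in the fit, 350 and 30 with normexp background correction, 7 and 1 with the slide as a fixed block, and 7931 and 1412 with array weights. With that slide block 0 of the 158 passed for the difference. With array position as a covariate the counts follow. The counts were 1225 and 0 with that covariate, and 2138 and 0 with it and all 24 arrays. By the layout of the slides that covariate could not change the size of the difference. Without a filter on dim probes 682 genes differed. Without dKO females 2 and 3 the counts were 1961 and 291, without dKO females 2 and 4 485 and 60, without dKO males 1 and 4 216 and 29, and without the arrays numbered 4 limma gave 0 and 0, with 4 or with 6 groups in the fit (2222 and 2701 genes at an unadjusted p under 0.05). Leaving out 1 array at a time gave 601 to 3157 and 75 to 371. The replicate number as a block gave 1002 and 124. With median centring 330 of 979 differing genes had a higher effect in males, against 698 of 1358. The median difference of the adipocyte list was -1.65 and turned to 0.53 without the filter. Among 3626 values of named genes under these settings 575 lost their call and 80 gained one. The causes were not tested. Dim probes, near background in whole groups for 23 of the 113, limit the sizes.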
